A study of Mus musculus with 14 samples.

Results

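CC chemokines are small secreted proteins that draw leukocytes along a concentration gradient, and 10 of their genes were followed here in injured mouse kidney. The 10 genes, Ccl2, Ccl3, Ccl4, Ccl5, Ccl6, Ccl7, Ccl9, Ccl12, Ccl20 and Ccl28, are a part of the CC chemokine genes among the 24411 genes of the count files. Another 11 in the files are covered further on. The 10 were chosen with earlier results of these data known. Shares of all genes set beside their counts are therefore no test of the set. RNA came from kidneys of male C57/B6 mice aged 8 weeks, with 4 libraries at day 0, and 5 libraries each at day 1 and at day 3 after renal ischemia-reperfusion injury (IRI), in which blood flow to the kidney is stopped and then restored. The library names call day 0 a control, and whether those mice had a sham operation is not given in the sources used here. No transgene, deletion or drug is named for any group. The labels do not say that each library came from its own animal, so p-values measure only the spread between these libraries.

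The family is named for adjacent cysteines near the amino terminus of its proteins. Its members signal through G protein-coupled receptors on leukocytes, and many of them bind several receptors. Ccl2, Ccl7 and Ccl12 bind Ccr2 and call monocytes out of the blood. Ccl3, Ccl4 and Ccl5 draw monocytes and T cells, and Ccl3 and Ccl5 bind Ccr1, which Ccl6 and Ccl9 share. Ccl20 is the ligand of Ccr6, carried by some T cells, B cells and dendritic cells, while Ccl28 is an epithelial chemokine that binds Ccr10 and Ccr3. In the kidney, injured tubules and incoming myeloid cells are both known sources of such chemokines.

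Reads on genes numbered 12485579 to 20476979 in a library, and values are given as CPM, the usual count relative to library size, scaled by TMM, edgeR's correction for library composition. The kidney label was checked against 8 proximal tubule markers, whose summed level was 12272 to 13761 CPM at day 0, and 4 tubular injury markers summed to 99.6 to 134.7 CPM at day 0, 883.2 to 5549 CPM at day 1 and 966.6 to 4545 CPM at day 3. Libraries carry a number of either 1 or 3 digits in their names. Day 0 has only the 1-digit form, which at day 1 is found in replicates 3 to 5 and at day 3 in replicates 4 and 5. What this number format marks is not given, and it was handled as a batch that may be technical. Its 3-digit form cannot be told apart from injury against day 0, since no day 0 library has it. In a tissue sampled in bulk, fewer cells of a type and less RNA per cell cannot be told apart either.

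Of the 10 genes, 8 lie in a pair of clusters on chromosome 11 of GRCm38, by the GENCODE M21 annotation. Ccl2 (chr11:82035571-82037453), Ccl7 (chr11:82045712-82047525) and Ccl12 (chr11:82101845-82103400) stand on the plus strand. Ccl5 (chr11:83525778-83530518), Ccl9 (chr11:83572919-83578636), Ccl6 (chr11:83587882-83593087) and Ccl3 (chr11:83647844-83649355) stand on the minus strand and Ccl4 (chr11:83662584-83664683) on the plus strand. Ccl20 (chr1:83116766-83119167) and Ccl28 (chr13:119623819-119654359) lie apart from them, both on the plus strand.

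The 250 bases before the start are shown for Ccl20, the member with the largest fitted change at day 1, and for Ccl9 and Ccl6, neighbours that moved together. They are RefSeq sequences of GRCm38.p6, read in the direction of the gene, at chr1:83116516-83116765 (plus strand), chr11:83578637-83578886 (minus strand) and chr11:83593088-83593337 (minus strand). Capitals mark matches, on either strand, to the kB motif of NF-kB factors (GGGNNNNNCC) or the AP-1 motif (TGANTCA).
Ccl20: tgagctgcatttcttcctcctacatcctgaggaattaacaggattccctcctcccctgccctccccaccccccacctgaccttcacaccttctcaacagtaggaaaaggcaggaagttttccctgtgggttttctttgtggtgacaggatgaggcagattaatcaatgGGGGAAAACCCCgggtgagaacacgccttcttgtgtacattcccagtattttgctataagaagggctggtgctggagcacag
Ccl9: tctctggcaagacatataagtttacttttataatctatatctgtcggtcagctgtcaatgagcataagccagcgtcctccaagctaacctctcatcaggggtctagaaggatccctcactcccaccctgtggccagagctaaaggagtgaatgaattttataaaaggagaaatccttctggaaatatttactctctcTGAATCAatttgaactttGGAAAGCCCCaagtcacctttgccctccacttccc
Ccl6: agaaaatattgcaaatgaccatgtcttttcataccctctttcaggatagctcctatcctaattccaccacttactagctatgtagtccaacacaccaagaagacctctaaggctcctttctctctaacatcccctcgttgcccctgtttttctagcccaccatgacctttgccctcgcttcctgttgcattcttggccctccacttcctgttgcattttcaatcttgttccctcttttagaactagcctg

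In Ccl20 the capitals are 4 overlapping kB matches that span bases 82 to 71 before the start. Ccl9 has an AP-1 match at bases 53 to 47 and a kB match at bases 35 to 26, and Ccl6 has neither. Promoters were at hand for 6 of the 10 genes (Ccl3, Ccl6, Ccl9, Ccl12, Ccl20 and Ccl28). A kB match was present in 3 of these 6, against 45.8% of 32851 promoter windows of the same length, and an AP-1 match in 1 of 6, against 6.75%. A match describes the letters of the window and does not show a bound factor.

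The CC chemokine genes were low in day 0 kidneys, apart from Ccl28, and most of those that could be tested rose after IRI. Of the 10 genes, 8 passed edgeR's filter on low counts, and Ccl4 and Ccl12 did not. Ccl7 and Ccl20, with 0 to 3 reads per library at day 0, passed it only through libraries of days 1 and 3. A rise of these genes was therefore close to given by the filter, and the counts and medians below include them. By edgeR's quasi-likelihood test with Benjamini-Hochberg adjustment over all 14300 genes tested, 6 of the 8 rose at day 1 (Ccl2, Ccl5, Ccl6, Ccl7, Ccl9 and Ccl20) and 1 fell (Ccl28), where 42.1% of all genes tested were called, 23.3% as higher and 18.7% as lower. At day 3, 5 rose (Ccl2, Ccl6, Ccl7, Ccl9 and Ccl20) and Ccl28 fell, where 33.3% of all genes were called (19.5% higher, 13.8% lower). From day 1 to day 3 a further rise was called for 3 (Ccl6, Ccl7 and Ccl9), where 15.9% of genes were called, 8.52% as higher. The median log2 fold change of the 8 genes was 2.71 at day 1 and 3.84 at day 3, beside medians of 0.01 and 0.05 over all genes tested. Groups did not overlap for 5 of the 8 genes in either comparison with day 0, against 42% of all genes at day 1 and 33.4% at day 3, and for 2 of the 8 between day 1 and day 3, against 7.61%.

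**Figure D1:**
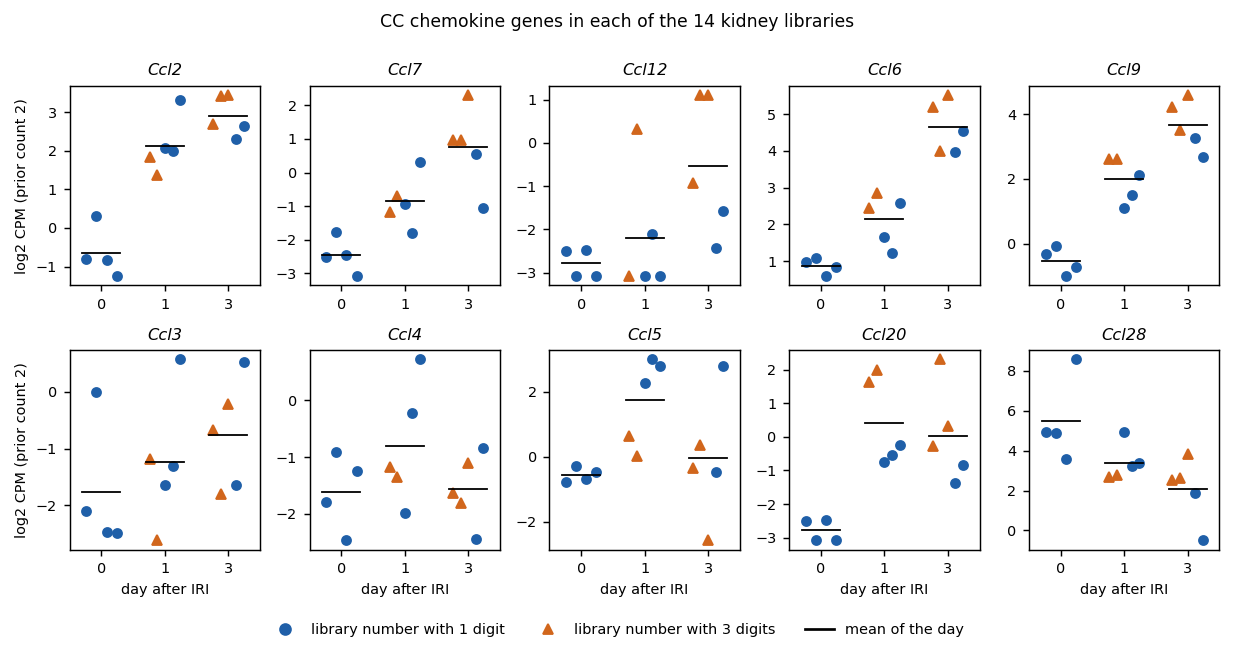
Log2 CPM (prior count 2, vertical axis) of the 10 CC chemokine genes in each library by day after IRI (horizontal axis). Circles are libraries with 1-digit numbers, triangles those with 3-digit numbers, and lines are the mean log2 CPM of each day. Ccl2, Ccl6, Ccl9 and Ccl20 stand higher in every library of days 1 and 3 than in any of day 0, and Ccl28 stands highest in replicate 4 of day 0.

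Among the ligands of Ccr2, Ccl2 and Ccl7 rose at both days. Ccl2 stood at 0.460, 1.12, 0.442 and 0.302 CPM in replicates 1 to 4 of day 0, at 3.45, 2.45, 4.09, 3.83 and 9.81 CPM in replicates 1 to 5 of day 1, and at 6.31, 10.5, 10.7, 4.77 and 6.10 CPM at day 3. Every injured kidney was above every day 0 kidney, while days 1 and 3 overlapped through replicate 5 of day 1. The log2 fold change of Ccl2 against day 0 was 3.00 at day 1 (SE 0.50, adjusted p = 0.000485, edgeR) and 3.71 at day 3 (SE 0.51, adjusted p = 0.000188). Its difference between day 3 and day 1 was 0.71 (95% interval -0.07 to 1.49, adjusted p = 0.234), which did not pass the test. Among 1-digit libraries that difference was -0.11 (adjusted p = 0.874), and among 3-digit libraries 1.63 (adjusted p = 0.0417, and up to 0.214 without 1 library). The difference between those 2 values, 1.75, had an adjusted p of 0.0889 in edgeR's test and 0.0428 in DESeq2's (0.0428 to 0.234 over all alternatives), so this call depended on the tool.

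Ccl7, which draws monocytes as Ccl2 does, was counted at 0 to 3 reads per library at day 0, that is 0.0575, 0.177, 0.0632 and 0 CPM. At day 1 it stood at 0.323, 0.5, 0.409, 0.171 and 1.13 CPM, and at day 3 at 1.83, 1.86, 4.80, 1.34 and 0.367 CPM. Day 1 overlapped day 0 through its replicate 4, and day 3 did not overlap day 0. The log2 fold change was 2.61 at day 1 (SE 0.89, adjusted p = 0.0295, edgeR) and 4.65 at day 3 (SE 0.86, adjusted p = 0.00134). The day 1 call was lost without any 1 of replicates 1, 3 and 4 of day 0 or replicate 5 of day 1 (adjusted p = 0.0672 to 0.0749), and the day 3 call in none of the 14 fits without 1 library. A rise from day 1 to day 3 of 2.05 (SE 0.63, adjusted p = 0.0400) was 2.75 among 3-digit libraries (adjusted p = 0.0359) and 0.66 among 1-digit libraries (adjusted p = 0.555). It lost its call without replicate 1 or 3 of day 0, replicate 1, 3 or 4 of day 1, or replicate 1, 3 or 4 of day 3, where the adjusted p reached 0.128.

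Ccl12, the third Ccr2 ligand, was too sparse for the test. Its reads numbered 1, 0, 1 and 0 at day 0, 0, 25, 0, 2 and 0 at day 1, and 8, 36, 41, 1 and 3 at day 3. The day 1 reads came almost all from replicate 2 (1.14 CPM), and at day 3 the 3 libraries with 3-digit numbers (0.407, 2.03 and 2.03 CPM) were above the 2 with 1-digit numbers (0.0672 and 0.220 CPM). The ratio of summed reads scaled for depth was 10.6 for day 1 to day 0 (95% counting interval 2.66 to 91.8) and 34.5 for day 3 to day 0 (9.27 to 289). These intervals cover counting error only, and not the spread between kidneys. Without the filter, edgeR gave Ccl12 an adjusted p of 0.182 at day 1 and 0.0350 at day 3.

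Ccl6 and Ccl9, both myeloid chemokines that bind Ccr1, rose at each step of the time course. Ccl6 stood at 1.84, 2.00, 1.39 and 1.69 CPM at day 0, at 5.39, 7.13, 3.07, 2.23 and 5.87 CPM at day 1, and at 36.1, 15.8, 45.4, 15.5 and 23.3 CPM at day 3. No day overlapped another. Its log2 fold change was 1.45 at day 1 (SE 0.40, adjusted p = 0.0104, edgeR) and 3.97 at day 3 (SE 0.43, adjusted p = 3.18e-05), with 2.52 from day 1 to day 3 (SE 0.36, adjusted p = 0.00150). The last step was as large within the formats, at 2.40 for 1-digit libraries (adjusted p = 0.00137) and 2.37 for 3-digit libraries (adjusted p = 0.00576).

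Ccl9, the neighbour of Ccl6, was at 0.690, 0.824, 0.379 and 0.484 CPM at day 0, at 6.04, 5.95, 2.04, 2.74 and 4.26 CPM at day 1, and at 18.5, 11.2, 23.8, 9.55 and 6.32 CPM at day 3. Here too the 3 days were separate, though the lowest library of day 3 (replicate 5) was close to the highest of day 1 (replicate 1). The log2 fold change was 2.81 at day 1 (SE 0.47, adjusted p = 0.000553, edgeR) and 4.53 at day 3 (SE 0.50, adjusted p = 3.72e-05). Between day 1 and day 3 it was 1.72 (SE 0.38, adjusted p = 0.0110), and 1.40 and 1.57 within the 1-digit and 3-digit libraries (adjusted p = 0.0118 and 0.0164). For Ccl6 and Ccl9 the calls in the 3 comparisons of days over both formats were kept in each of the 14 fits that left out 1 library. Within formats the last step lost its call without 1 library for Ccl9 in either format (adjusted p up to 0.111 and 0.128) and for Ccl6 among 3-digit libraries (adjusted p = 0.0805).

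Of Ccl3, Ccl4 and Ccl5, Ccl5 was called at day 1 and Ccl3 at neither day, while Ccl4 did not pass the filter. Ccl5, which attracts T cells as well as monocytes, stood at 0.460, 0.706, 0.505 and 0.605 CPM at day 0, at 1.45, 0.908, 4.77, 7.89 and 6.92 CPM at day 1, and at 0.662, 1.18, 0.0495, 0.605 and 6.83 CPM at day 3. The 3 libraries above 4 CPM at day 1 all had 1-digit numbers, and at day 3 only replicate 5 was above the range of day 1's lowest libraries. Day 1 did not overlap day 0 and day 3 did. The log2 fold change was 2.92 at day 1 (SE 0.99, adjusted p = 0.0290, edgeR) and 1.67 at day 3 (95% interval -0.24 to 3.58, adjusted p = 0.198). Without 1 library the day 3 value ran from 0.126 to 1.95. From day 1 to day 3 the log2 difference was -1.25 (adjusted p = 0.322, edgeR). Without 1 library that difference ran from -2.83 to -0.924 (adjusted p = 0.0152 to 0.545). The day 1 call of Ccl5 was lost without any 1 of the 4 libraries of day 0 or replicate 4 or 5 of day 1 (adjusted p = 0.0572 to 0.0729).

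Split by format, the log2 fold change of Ccl5 at day 1 was 3.50 among 1-digit libraries (adjusted p = 0.00103, edgeR) and 1.04 among 3-digit libraries (adjusted p = 0.335). The day 3 values were 2.68 (adjusted p = 0.0108) and 0.12 (adjusted p = 0.925), in the same order. Of the 2 libraries with 1-digit numbers at day 3, replicate 5 was high and replicate 4 (0.605 CPM) was at the day 0 level. The day 3 value in the 1-digit libraries fell to 0.11 without replicate 5 (adjusted p = 0.934), so that library decided it.

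Ccl3 and Ccl4, which macrophages and other leukocytes secrete together, stayed at low counts throughout. Ccl3 was at 0.115, 0.883, 0.0632 and 0.0605 CPM at day 0, at 0.323, 0.0454, 0.204, 0.286 and 1.37 CPM at day 1, and at 0.509, 0.169, 0.743, 0.202 and 1.32 CPM at day 3. Replicate 2 of day 0 lay within the upper part of the injured range, and the days overlapped. Its log2 fold change was 0.56 at day 1 (95% interval -1.31 to 2.43, adjusted p = 0.657, edgeR) and 1.03 at day 3 (-0.79 to 2.85, adjusted p = 0.407), intervals wide enough to hold a change of several-fold. Without replicate 2 of day 0 these values of Ccl3 were 2.29 (adjusted p = 0.113) and 2.75 (adjusted p = 0.0731). The 1-digit libraries alone gave 1.05 at day 1 (adjusted p = 0.388) and 1.39 at day 3 (adjusted p = 0.296), which passed the test without that library, at 2.78 (adjusted p = 0.0499) and 3.12 (adjusted p = 0.0410). Ccl4 was at 0.173, 0.412, 0.0632 and 0.302 CPM at day 0, at 0.323, 0.273, 0.136, 0.743 and 1.53 CPM at day 1, and at 0.204, 0.169, 0.347, 0.0672 and 0.441 CPM at day 3. Replicate 5 of day 1 was the highest library for both genes. Ccl4 did not pass the filter, and without it edgeR gave a log2 fold change of 1.25 at day 1 (adjusted p = 0.194) and 0.00 at day 3 (SE 0.71).

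Ccl20, the Ccr6 ligand, went from almost no reads to a clear signal. Its reads numbered 1, 0, 1 and 0 in the 4 libraries of day 0, which is at most 0.0632 CPM. At day 1 it stood at 3.02, 3.91, 0.477, 0.572 and 0.724 CPM, and at day 3 at 0.713, 4.84, 1.14, 0.269 and 0.441 CPM. Every injured library was above every day 0 library, the 2 with 3-digit numbers were far above the rest at day 1, and replicate 2 stood above the others at day 3. With 2 reads in all at day 0, the ratio of summed reads scaled for depth was 65.8 at day 1 (95% counting interval 17.9 to 548) and 51.6 at day 3 (14 to 430). By edgeR's test the adjusted p was 0.00356 at day 1 and 0.00630 at day 3, and these calls were kept in each of the 14 fits without 1 library. From day 1 to day 3 the log2 difference was -0.24 (95% interval -1.74 to 1.25, adjusted p = 0.852). Replicate 2 held 86 of the 133 Ccl20 reads of day 3, and without it the fitted log2 fold change at day 3 went from 5.33 to 4.14 (adjusted p = 0.00829) and the difference from day 1 to -1.42 (adjusted p = 0.165).

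Ccl28, which mucosal and other epithelia secrete, was the 1 member that fell. It stood at 30.1, 29.7, 12.1 and 381 CPM at day 0, at 6.20, 6.81, 30.6, 9.20 and 10.2 CPM at day 1, and at 5.65, 5.97, 14, 3.50 and 0.588 CPM at day 3. Replicate 4 of day 0, with 6295 reads, was far above every other library, and the days overlapped through replicate 3 of day 0 and replicate 3 of each later day. The log2 fold change was -3.17 at day 1 (SE 0.94, adjusted p = 0.0154, edgeR) and -4.23 at day 3 (SE 0.99, adjusted p = 0.00562). Without replicate 4 of day 0 it was -0.93 at day 1 (adjusted p = 0.306) and -2.0 at day 3 (adjusted p = 0.0480), so the day 1 call rested on that library. Within formats, its log2 fold change without that library was -0.52 at day 1 among 1-digit libraries (-2.76 with it, adjusted p = 0.0344 to 0.449), -1.88 at day 1 among 3-digit libraries (-4.12 with it, 0.0250 to 0.0452), -3.53 at day 3 among 1-digit libraries (-5.76 with it, 0.00661 to 0.00274) and -1.49 at day 3 among 3-digit libraries (-3.73 with it, 0.0193 to 0.0718). In that library the 7 urothelium markers summed to 88.7 CPM, against 4.47 to 16.5 CPM in the other day 0 libraries. Replicate 2 of day 1 had the highest such sum, 128 CPM, with Ccl28 at 6.81 CPM. Markers of kidney epithelia fell in part as well, where 18.7% of all genes tested were called lower at day 1 and 13.8% at day 3. The proximal tubule markers went from 12272 to 13761 CPM at day 0 to 2861 to 12833 CPM at day 1 (3 of 8 lower by edgeR's test) and 1943 to 11048 CPM at day 3 (4 of 8 lower), and the 7 collecting duct markers from 770 to 1066 CPM at day 0 to 522 to 790 CPM at day 1 (2 of 7 lower) and 310 to 689 CPM at day 3 (4 of 7 lower). Replicate 5 of day 3, the lowest library in Ccl28, had the lowest sum of both lists (1943 and 310 CPM). Replicate 3 of day 1, the highest injured library in Ccl28, had the highest proximal tubule sum of the injured libraries, while its collecting duct sum of 548 CPM was the second lowest of day 1. The part of urothelial or tubular cells in the Ccl28 values was not tested.

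The library number format went with 3 of the 8 tested members at each day, and the same 3 genes were called at day 1 and day 3. Ccl20 was higher in 3-digit than in 1-digit libraries by 2.55 on the log2 scale at day 1 (SE 0.68, adjusted p = 0.0122, edgeR) and by 2.63 at day 3 (SE 0.81, adjusted p = 0.0396). Ccl5 was lower in 3-digit libraries, with differences of -2.47 (SE 0.85, adjusted p = 0.0391) and -2.56 (SE 0.83, adjusted p = 0.0484). Ccl9 was higher in them, by 1.00 (SE 0.37, adjusted p = 0.0498) and 1.17 (SE 0.37, adjusted p = 0.0427). The background was 35% of all genes tested called by format at day 1 and 18.5% at day 3, so 3 of 8 is near the share of all genes at day 1. Several of these calls stood close to the threshold: at day 1 all 3 were lost without replicate 2 of day 1, and at day 3 all 3 were lost without replicate 5 of day 3 or without replicate 1, 2 or 3 of day 0, which enter that fit only through the shared spread, the gene filter and the scaling. At day 3 the Ccl20 difference was 1.38 without replicate 2 (adjusted p = 0.132), and the Ccl5 difference was 0.01 without replicate 5 (adjusted p = 0.995). For the format difference of day 3 minus that of day 1, edgeR called 0 of the 8 members and gave 1, Ccl2, an unadjusted p under 0.05, where 17.6% of all genes were called. DESeq2 called 1 member, Ccl2.

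The sums of injury and kidney cell type markers also differed by number format, though the shares called were in part near that of all genes. At day 1 the 4 tubular injury markers summed to 5224 to 5549 CPM in 3-digit and 883 to 2816 CPM in 1-digit libraries (1 of 4 higher by edgeR's test), and the 8 proximal tubule markers to 2861 to 3560 CPM against 8294 to 12833 CPM (5 of 8 lower). The 7 urothelium markers summed to 23.4 to 128 CPM against 5.32 to 11.1 CPM (3 of 7 higher), and the 4 smooth muscle markers to 320 to 389 CPM against 96.2 to 162 CPM (4 of 4 higher). At day 3 these lay the other way for injury (967 to 2414 CPM in 3-digit and 3422 to 4545 CPM in 1-digit libraries, 1 of 4 lower), proximal tubule (5174 to 11048 CPM against 1943 to 3178 CPM, 4 of 8 higher) and smooth muscle (155 to 256 CPM against 594 to 842 CPM, 2 of 4 lower). Fibroblast and pericyte markers, 108 to 110 CPM at day 0, summed to 244 to 285 CPM in 3-digit and 126 to 175 CPM in 1-digit libraries at day 1 (2 of 6 higher), and to 313 to 583 CPM and 497 to 670 CPM at day 3 (2 of 6 lower). Against day 0, 1 of the 6 rose at day 1 and 4 at day 3, where 23.3% and 19.5% of all genes tested were called higher. Endothelium markers, 208 to 273 CPM at day 0, summed to 254 to 310 CPM against 303 to 404 CPM at day 1 (1 of 5 higher, 1 lower) and to 136 to 232 CPM against 327 to 544 CPM at day 3 (3 of 5 lower). The urothelium sums overlapped at day 3, with 0 of the 7 markers called by edgeR and 1, Krt5, at an unadjusted p under 0.05. Collecting duct markers summed to 764 to 790 CPM in 3-digit and 522 to 747 CPM in 1-digit libraries at day 1 (1 of 7 higher, 1 lower). At day 3 the sums were 354 to 689 CPM and 310 to 448 CPM (1 of 7 higher). Of all genes, 35% were called by format at day 1 and 18.5% at day 3. At day 1 the shares called of injury, fibroblast and pericyte, endothelium and collecting duct markers were near or below that of all genes. The differences of Ccl20, Ccl5 and Ccl9 had the same sign at both days, apart from the Ccl5 value without replicate 5 of day 3. The part of injury or of these cells in the format differences was not tested.

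The rises against day 0 held within either format for most members. In the 1-digit libraries, which day 0 shares, 6 rose and 1 fell at day 1, where 58.5% of all genes were called (28.9% higher, 29.6% lower), and likewise at day 3, where 53.7% were called (28.6% higher, 25.1% lower). In the 3-digit libraries, 4 rose and 1 fell at day 1, against 41.6% of all genes called (22.6% higher, 19% lower), and 5 rose and 1 fell at day 3, against 32.4% (19.1% higher, 13.3% lower). From day 1 to day 3, 2 members were called among 1-digit libraries (Ccl6 and Ccl9, 32% of all genes called) and 4 among 3-digit libraries (Ccl2, Ccl6, Ccl7 and Ccl9, 13.9%). Of these, the call of Ccl9 among 1-digit libraries was lost without replicate 4 of day 3 (1.08 on the log2 scale, adjusted p = 0.111) and with the replicate block (adjusted p = 0.0520). All 4 calls among 3-digit libraries were lost when only the groups compared were fitted (adjusted p = 0.0541 to 0.0779), and those of Ccl2, Ccl7 and Ccl9 also with the block (0.0623 to 0.126). Without replicate 1 of day 1 all 4 were lost as well (adjusted p = 0.0805 to 0.225), as were Ccl2, Ccl7 and Ccl9 without replicate 2 of day 1 or replicate 3 of day 3 (0.0524 to 0.214), Ccl2 without replicate 2 of day 3 (0.0779), and Ccl2 and Ccl7 without replicate 1 or 3 of day 0 (0.0543 to 0.0582). Called in only 1 of the formats were Ccl5 at both days and Ccl7 at day 1, where its log2 fold change was 2.74 among 1-digit libraries (adjusted p = 0.0193, edgeR) and 2.36 among 3-digit libraries (adjusted p = 0.0683). For Ccl7 the format difference itself was -0.38 (adjusted p = 0.752), which did not pass. Several calls in the 1-digit libraries rested on single libraries. The day 1 rise of Ccl6 there was lost without replicate 1, 3 or 4 of day 0 (adjusted p = 0.0536 to 0.0732) or replicate 5 of day 1 (0.61 on the log2 scale, adjusted p = 0.226). The day 3 rise of Ccl20 was lost without replicate 2 or 4 of day 0 or either library of day 3 (adjusted p = 0.0536 to 0.152), and the rises of Ccl7 without replicate 5 of day 1 (1.83, adjusted p = 0.139) or replicate 4 of day 3 (2.19, adjusted p = 0.172). Besides the losses without replicate 4 of day 0, the fall of Ccl28 lost its call without replicate 4 or 5 of day 1 or replicate 5 of day 3 among 1-digit libraries (adjusted p = 0.0700 to 0.117), and without replicate 1 or 2 of day 1 or replicate 1 of day 3 among 3-digit libraries (adjusted p = 0.0723 to 0.135).

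**Figure D2:**
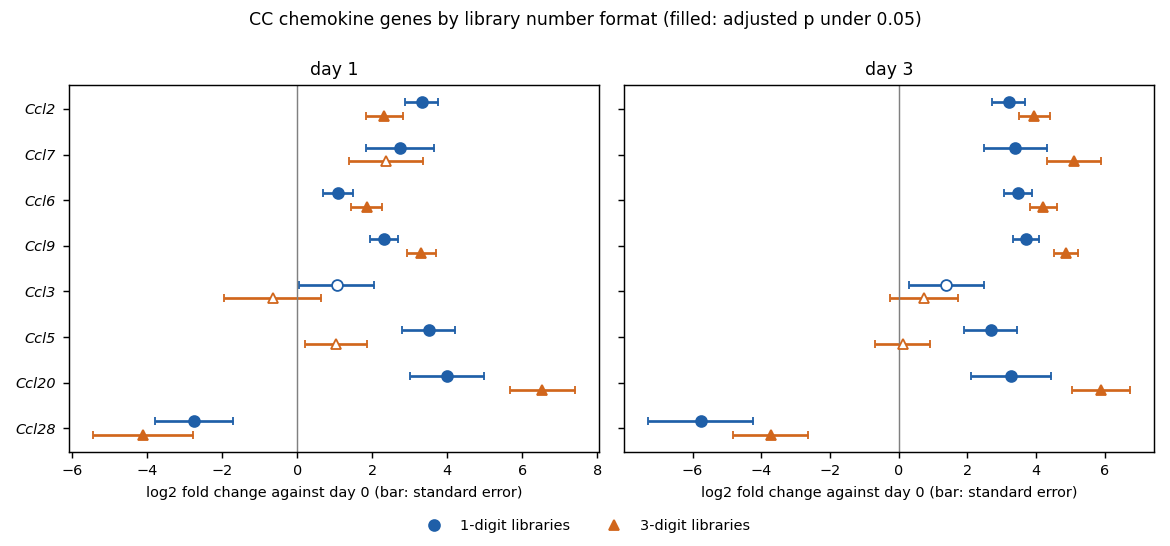
Log2 fold change against day 0 with its standard error (horizontal axis) for the 8 tested CC chemokine genes (vertical axis) at day 1 and day 3, separately for libraries with 1-digit and 3-digit numbers. Filled symbols have an adjusted p under 0.05. Ccl2, Ccl6, Ccl9, Ccl20 and Ccl28 are filled in all 4 sets, though without replicate 4 of day 0 Ccl28 lost its call in 2 of them, while Ccl5 is filled only for the 1-digit libraries.

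Levels of different genes were compared per length, as CPM per kilobase of exon bases in GENCODE M21. At day 0 Ccl28 led with 30.3 ± 47.7 (SD, n = 4), a mean that replicate 4 sets, followed by Ccl6 at 1.20 ± 0.181, Ccl5 at 1.07 ± 0.206 and Ccl2 at 0.714 ± 0.449, which do not differ beyond their spread. At day 1 the order was Ccl5 at 8.25 ± 5.91 (SD, n = 5), Ccl2 at 5.81 ± 3.58, Ccl28 at 3.37 ± 2.73 and Ccl6 at 3.29 ± 1.41, each within the spread of its neighbours. At day 3 Ccl6 led with 18.9 ± 9.15, then Ccl2 with 9.44 ± 3.35, Ccl9 with 4.62 ± 2.37 and Ccl5 with 3.51 ± 5.27, a mean that replicate 5 sets. The lowest were Ccl20 at day 0 (0.0212 ± 0.0246), Ccl12 at day 1 (0.466 ± 0.927) and Ccl4 at day 3 (0.372 ± 0.224). The order at day 1 differed with number format: Ccl5 led in the 1-digit libraries with 12.3 ± 3.0 (SD, n = 3), while in the 3-digit libraries Ccl6 (4.35 ± 0.856, n = 2) and Ccl2 (3.63 ± 0.866) stood above Ccl5 (2.22 ± 0.726). At day 3 Ccl6 led in both formats, with 13.5 ± 3.84 in the 1-digit (n = 2) and 22.5 ± 10.5 in the 3-digit libraries (n = 3).

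Across the 14 libraries, which share their days and formats, the log2 CPM of Ccl6 and Ccl9 had a Pearson r of 0.94, Ccl7 and Ccl9 one of 0.91, and Ccl2 and Ccl9 one of 0.89. Ccl5 stood apart, with r of 0.30 to Ccl2, -0.04 to Ccl9 and -0.16 to Ccl6. The non-member genes with the most similar pattern to Ccl2 were Ctss, a lysosomal cathepsin (0.96), and Cd53, a leukocyte tetraspanin (0.96). For Ccl6 they were Chil3, a macrophage lectin (0.97), and Tyrobp, a myeloid signalling adaptor (0.97), and for Ccl9 Msr1, the macrophage scavenger receptor (0.98), and Golm1 (0.97). For Ccl7 they were Ccsap (0.96) and Clec4n, a myeloid C-type lectin (0.94), and for Ccl20 Ankrd1 (0.97) and Nuak2 (0.93). Ccl3 was most like Fpr1, the formyl peptide receptor of phagocytes (0.83), and Wfdc17 (0.81), Ccl5 most like Daxx (0.95) and Samd4b (0.94), and Ccl28 most like Nlrc4 (0.91) and Slc6a15 (0.90). These r values describe the 14 libraries and carry no test.

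Of 14 receptor genes for CC chemokines, the decoy and atypical ones included, 6 passed the filter, and 2 of those rose at either day with none falling, where 42.1% of all genes tested were called at day 1 (23.3% higher) and 33.3% at day 3 (19.5% higher). Ccr1, the receptor of Ccl3, Ccl5, Ccl6 and Ccl9, was at 0.403, 0.235, 0.505 and 0.302 CPM at day 0, at 7.87, 5.45, 2.18, 3.14 and 6.19 CPM at day 1, and at 11.5, 4.79, 11.3, 8.41 and 8.52 CPM at day 3. All injured libraries were above all day 0 libraries. The log2 fold change of Ccr1 was 3.76 at day 1 (SE 0.45, adjusted p = 4.89e-05, edgeR) and 4.60 at day 3 (SE 0.46, adjusted p = 1.62e-05). Ackr4, an atypical receptor that takes up Ccl19, Ccl21 and Ccl25, was counted at 0 to 5 reads per library at day 0 and rose by 3.83 at day 1 (SE 0.80, adjusted p = 0.00211) and 2.58 at day 3 (SE 0.82, adjusted p = 0.0257).

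Ccr2, the receptor of Ccl2, Ccl7 and Ccl12, did not pass the test at either day. It was at 2.19, 2.59, 2.21 and 3.27 CPM at day 0, at 1.99, 2.95, 2.04, 1.20 and 1.77 CPM at day 1, and at 3.61, 12.6, 14.9, 1.34 and 1.25 CPM at day 3. At day 3 the 3 libraries with 3-digit numbers were above all of day 0 and the 2 with 1-digit numbers below it. The pooled log2 fold change was -0.36 at day 1 (adjusted p = 0.668, edgeR) and 1.40 at day 3 (adjusted p = 0.103). By format, 3-digit against 1-digit libraries differed by 2.99 at day 3 (adjusted p = 0.00568) and 0.58 at day 1 (adjusted p = 0.381), and these differences were themselves different (2.41, adjusted p = 0.0354).

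Ccrl2, which presents chemerin rather than signalling, was lower in 3-digit libraries, with differences of -1.68 at day 1 (adjusted p = 0.00801, edgeR) and -1.56 at day 3 (adjusted p = 0.0190). Ccr6, the receptor of Ccl20, had 0 reads in all libraries of day 3 and in the 3-digit libraries of day 1. Ackr2, a decoy for inflammatory CC chemokines, had log2 fold changes of 1.42 at day 1 and 1.15 at day 3 (adjusted p = 0.102 and 0.202).

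**Figure D3:**
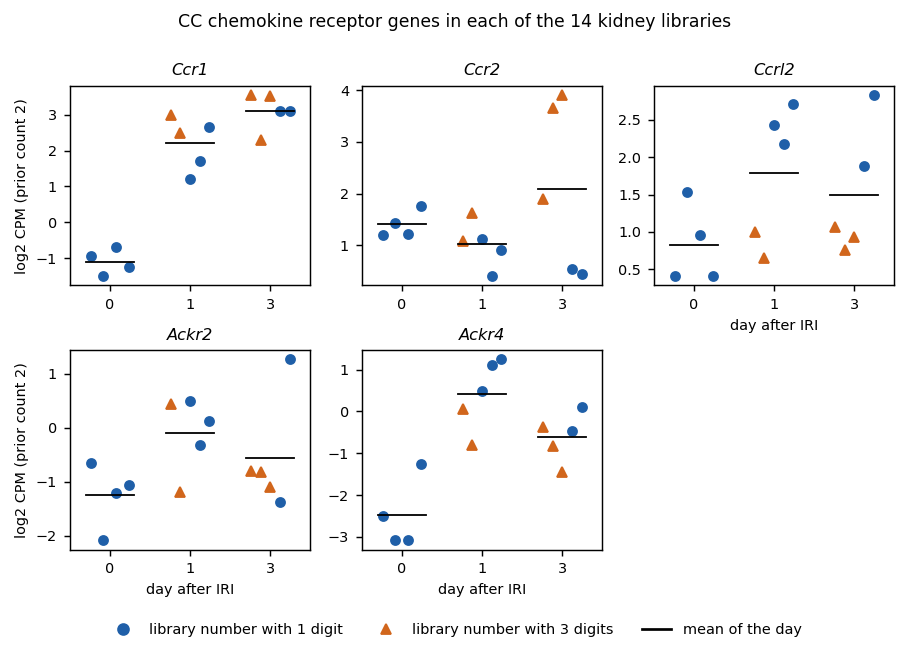
Log2 CPM (prior count 2, vertical axis) of 5 CC chemokine receptor genes in each library by day after IRI (horizontal axis). Circles are libraries with 1-digit numbers, triangles those with 3-digit numbers, and lines are daily means. Ccr1 is higher in every injured library than at day 0, and Ccr2 splits by number format at day 3.

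Of 11 other CC chemokine genes, 3 passed the filter. Ccl11, which draws eosinophils, was at 0.173, 0, 0 and 0.423 CPM at day 0, at 0.808, 0.908, 1.02, 2.06 and 3.14 CPM at day 1, and at 0, 0.451, 0.396, 0.0672 and 0.294 CPM at day 3. It rose by 3.33 on the log2 scale at day 1 (SE 0.91, adjusted p = 0.0102, edgeR), differed from day 0 by 0.67 at day 3 (adjusted p = 0.618), and fell by 2.66 from day 1 to day 3 (SE 0.79, adjusted p = 0.0357). Ccl24, another eosinophil chemokine, had 2 reads in all at day 0 and 76 at day 3, a depth-scaled ratio of 29.5 (95% counting interval 7.88 to 248), with adjusted p = 0.00141 in edgeR's test. Ccl25, the ligand of Ccr9, ranged from 2.65 to 4.86 CPM over all 14 libraries and was not called at either day (adjusted p = 0.457 and 0.184).

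The leukocyte marker lists did not move alike. The 9 neutrophil markers, of which 8 are in the files, summed to 1.39 to 2.07 CPM at day 0, 48.9 to 216 CPM at day 1 and 19.3 to 475 CPM at day 3. All 6 that passed the filter rose at both days, where 23.3% of all genes tested were called higher at day 1 and 19.5% at day 3. With sums this low at day 0, these markers passed the filter largely through libraries of days 1 and 3. Their count of rises was therefore close to given by the filter. The 12 monocyte and macrophage markers summed to 143 to 235 CPM at day 0. In their sums, the 3-digit libraries (348 to 364 CPM at day 1, 359 to 537 CPM at day 3) stood above the 1-digit ones (147 to 218 CPM and 215 to 242 CPM), and the 1-digit sums of day 1 lay within the range of day 0. By format, only 1 of the 12 was called higher in 3-digit libraries at day 1, below the 35% of all genes called. At day 3, 6 were called higher and 1 lower, where 18.5% of all genes were called. Of these 12, 3 rose and 1 fell at day 1 (Csf1r), below the 42.1% of all genes called, and 5 rose and 1 fell at day 3, where 33.3% of all genes were called. Among 1-digit libraries 3 rose and 4 fell at day 1, and 3 rose and 3 fell at day 3 (58.5% and 53.7% of all genes called). Among 3-digit libraries 3 rose and 1 fell at day 1, and 8 rose and 1 fell at day 3 (41.6% and 32.4%). Ccl2, Ccl5, Ccl6, Ccl7, Ccl9 and Ccl20 were called higher in the 1-digit libraries of both days. Of these calls, those of Ccl5 and Ccl20 at day 3, Ccl6 at day 1 and Ccl7 at both days were lost without 1 library. Ccl9, higher in 3-digit libraries, had the direction of the sums of this list, and Ccl5, lower in them, did not.

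The T and NK cell markers, cells that are a known source of Ccl5, summed to 2.35 to 3.99 CPM at day 0, 0.700 to 2.57 CPM at day 1 and 0.305 to 1.91 CPM at day 3. Of the 12 listed, 11 are in the files and 1 passed the filter, Cd8a, which fell at both days (-2.23 and -2.93 on the log2 scale, adjusted p = 0.00753 and 0.00280 by edgeR's test). The rise of Ccl5 at day 1 was not matched by a rise of these markers. Replicate 5 of day 3, the library with the highest neutrophil sum (475 CPM), was the highest of day 3 in Ccl5 and Ccl3 and the lowest of all in Ccl28. B cell markers summed to at most 2.18 CPM and dendritic cell markers to at most 8.74 CPM in any library. The part of any of these cells in the chemokine values was not tested.

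**Figure D4:**
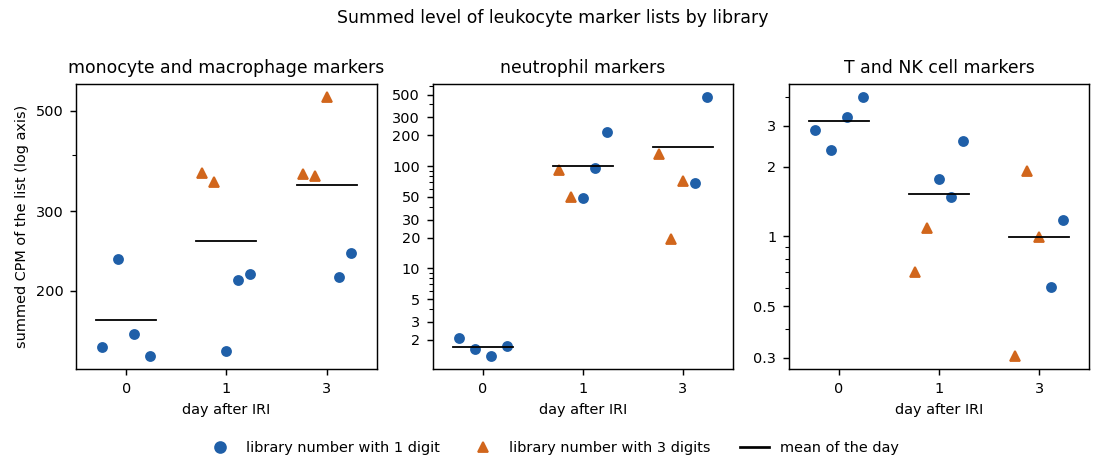
Summed CPM (vertical log axis) of the monocyte and macrophage, neutrophil, and T and NK cell marker lists in each library by day after IRI (horizontal axis). Circles are libraries with 1-digit numbers, triangles those with 3-digit numbers, and lines are daily means. Neutrophil sums rise from at most 2.07 CPM at day 0 to at least 19.3 CPM after injury, while the mean T and NK cell sum is highest at day 0.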

How the data were processed

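Kidney RNA was sequenced in 14 libraries (TRIzol extraction, Illumina TruSeq kit). The authors deposited, per library, STAR's raw counts of reads per gene, unstranded and by strand. The submitters' processing notes name Trimmomatic, STAR and mm10; versions and annotation are not given in the sources used here. Column 4, which held 98.5% to 98.7% of strand-assigned reads, was used. The 4 entries naming no gene held 29.0% to 38.3% of reads and were left out.

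Analysis used R 4.3.3 and edgeR 4.0.16: filterByExpr by day, TMM scaling, the quasi-likelihood test over all 14 libraries with a term per day (or per day and number format), and Benjamini-Hochberg adjustment over 14300 genes, called under 0.05. SEs derive from the F value. Log2 CPM used a prior count of 2. Scripts were tested on simulated data. DESeq2 1.42.0, other scalings and filters, a replicate block and leaving out libraries were alternatives. The 10 members, all described, and the gene lists were chosen with earlier results of these data known. Likeness is the 2 non-members of highest Pearson r. Near-identical copies can lose reads to unique mapping. No 2 replicates agreed within sampling noise (chi-square over its degrees of freedom, 5.69 to 228). The values of 1 receptor gene are not reported here.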

Additional observations from a re-analysis of the deposited data

Results flagged for a closer look

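Each member was searched in each day for a library whose gap to its nearest neighbour takes most of the group's range (Dixon's test at 95%), on CPM and on log2 CPM. This gave 10 of 60 groups, and the scales share their libraries. For normally distributed values chance gives 3, but sparse and skewed counts are not so distributed. The 10 therefore do not show more outlying libraries than chance. On both scales Ccl3 stood apart in replicate 2 of day 0 (0.883 CPM, the others 0.0605 to 0.115, and 0.000485 on the log2 scale, the others -2.49 to -2.10). Ccl12 did so in replicate 2 of day 1 (1.14 CPM, the others 0 to 0.114, and 0.33 on the log2 scale). On CPM alone, Ccl28 stood apart in replicate 4 of day 0 (381 CPM, the others 12.1 to 30.1) and in replicate 3 of day 1 (30.6 CPM, the others 6.20 to 10.2). Replicate 5 of day 1 was high in Ccl2 (9.81 CPM, the others 2.45 to 4.09) and in Ccl3 (1.37 CPM, the others 0.0454 to 0.323). At day 3, Ccl5 was high in replicate 5 (6.83 CPM, the others 0.0495 to 1.18) and Ccl20 in replicate 2 (4.84 CPM, the others 0.269 to 1.14).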

How the results depend on the processing

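The calls of Ccl2, Ccl6, Ccl9 and Ccl20 against day 0 at both days were kept under every alternative that tested them, including each library left out. The number of members called changed by over 1.5 times only in the cases given here, and the cause was not tested. With the replicate block it was 4 at day 1 against day 0 (7 without it), 0 for format at day 1 and at day 3 (3 each), 4 within the 1-digit libraries at day 1 and at day 3 (7 each), and 1 from day 1 to day 3 in either format (2 and 4). Same-numbered libraries correlated at -0.175 to 0.261 in their deviations from the day means, and 4 of 14 were most like their own number. These deviations hold the number format as well. Replicate 3, which changes format between days 1 and 3, gave -0.175, while replicates 4 and 5, which keep it, gave 0.17 and 0.228. Whether the numbers pair the libraries could therefore not be decided. Unstranded counts left 1 call for format at day 3. DESeq2 called 1 member where edgeR called 0 for the format difference of day 3 minus that of day 1. Fitting only the groups compared left 0 for format at day 3, 4 in the 1-digit libraries at day 1 and 0 from day 1 to day 3 in the 3-digit libraries, with fewer samples and genes. Leaving out 1 library gave 4 to 7 at day 1, 0 to 3 for format at day 1, 0 to 2 for format at day 3, 4 to 8 and 4 to 7 in the 1-digit libraries at days 1 and 3, 1 to 3 and 0 to 4 from day 1 to day 3 in 1-digit and 3-digit libraries, and 0 to 1 for the format difference between days. The Ccl5 format difference at day 3 (-2.56) ran from -3.45 to 0.012 without 1 library, and its sign turned without replicate 5 of day 3. With a prior count of 0.5, 3 of 30 mean log2 CPM values moved by over 1 SD, all at day 0. Reads of 0 to 3 per library at day 0 limit Ccl7, Ccl12 and Ccl20.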
